A study of Mus musculus with 24 samples.

Results

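The splicing regulators and RNA-binding proteins described here are the genes of 10 families, chosen by symbol alone: the SR proteins (Srsf), the heterogeneous nuclear ribonucleoproteins (Hnrnp), and the Tra2, Ptbp, Rbfox, Nova, Celf, Mbnl, Elavl and Khdrbs genes. They number 57 of the 37991 genes counted, and all 57 were found in the count tables. The mice were males of the inbred strain C57BL/6J, and the tissue was cerebellum, taken at an age of 7 weeks or 79 weeks. Each age had 2 mRNA libraries (Trizol RNA, Universal Plus mRNA-Seq kit), and the labels name no treatment or engineered allele. The other 20 of the 24 samples, which are methylation libraries, were not used here. Whether both libraries of one age are from different mice is not in the labels, so a p-value here measures library spread only, and that spread may be technical.

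Splicing joins exons and removes introns from a new transcript, and these proteins bind the transcript and steer which exons are kept. SR proteins mostly bind within exons and favour their inclusion, while hnRNPs and the polypyrimidine tract binding proteins (Ptbp) often repress exons. Rbfox proteins bind UGCAUG, and Rbfox, Nova, Celf, Mbnl, the neuronal Elavl genes and the Khdrbs genes set exon choice or transcript stability in neurons. The counts are per gene, so they measure the amount of transcript of each regulator and not the splicing of any exon.

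Reads assigned to genes totalled 16367656 and 21124608 in the 7-week pair and 18901921 and 22826993 in the 79-week pair. The 57 genes took 1.05% to 1.10% of them. After the filter on low counts 56 of the 57 could be tested, with totals over the 4 libraries from 411 to 50778 reads. Markers of granule neurons and Purkinje cells were detected, with none of either list at 0 in all libraries. Markers of the choroid plexus, a fluid-secreting tissue next to the cerebellum, stood apart in 1 library: their 9 genes summed to 5383 CPM (read counts scaled by library size and TMM) in 79-week replicate 1 and to 16.8, 30.1 and 38.9 CPM in the other libraries, with none of the 9 at 0 in all of them.

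Between the ages, 5 of the 56 tested genes were called at an adjusted p of 0.05 in edgeR's quasi-likelihood test, or 8.93%, against 8.84% of all 15292 genes tested. DESeq2 called 6, adding Rbfox3, against 8.31% of all genes. Rbfox1, Mbnl2 and Celf2 were lower at 79 weeks, and Ptbp1 and Srsf5 were higher, against 4.68% of all genes called lower and 4.17% called higher. Libraries of the ages did not overlap for 40 of the 56, or 71.4%, against 57.7% of all genes, with 22 higher and 18 lower against 29.1% and 28.7%. An unadjusted p under 0.05 was found for 17, against 26.7% of all genes. The share called is thus near that of all genes, and log2 fold changes ran from -0.34 for Rbfox1 to 0.57 for Celf6. The median absolute log2 fold change was 0.11 over the tested members and 0.16 over all genes tested. All genes tested include genes with fewer reads than any tested member, so these medians are not matched for expression. The median signed value was 0.02 over the members and 0.01 over all genes.

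**Figure D1:**
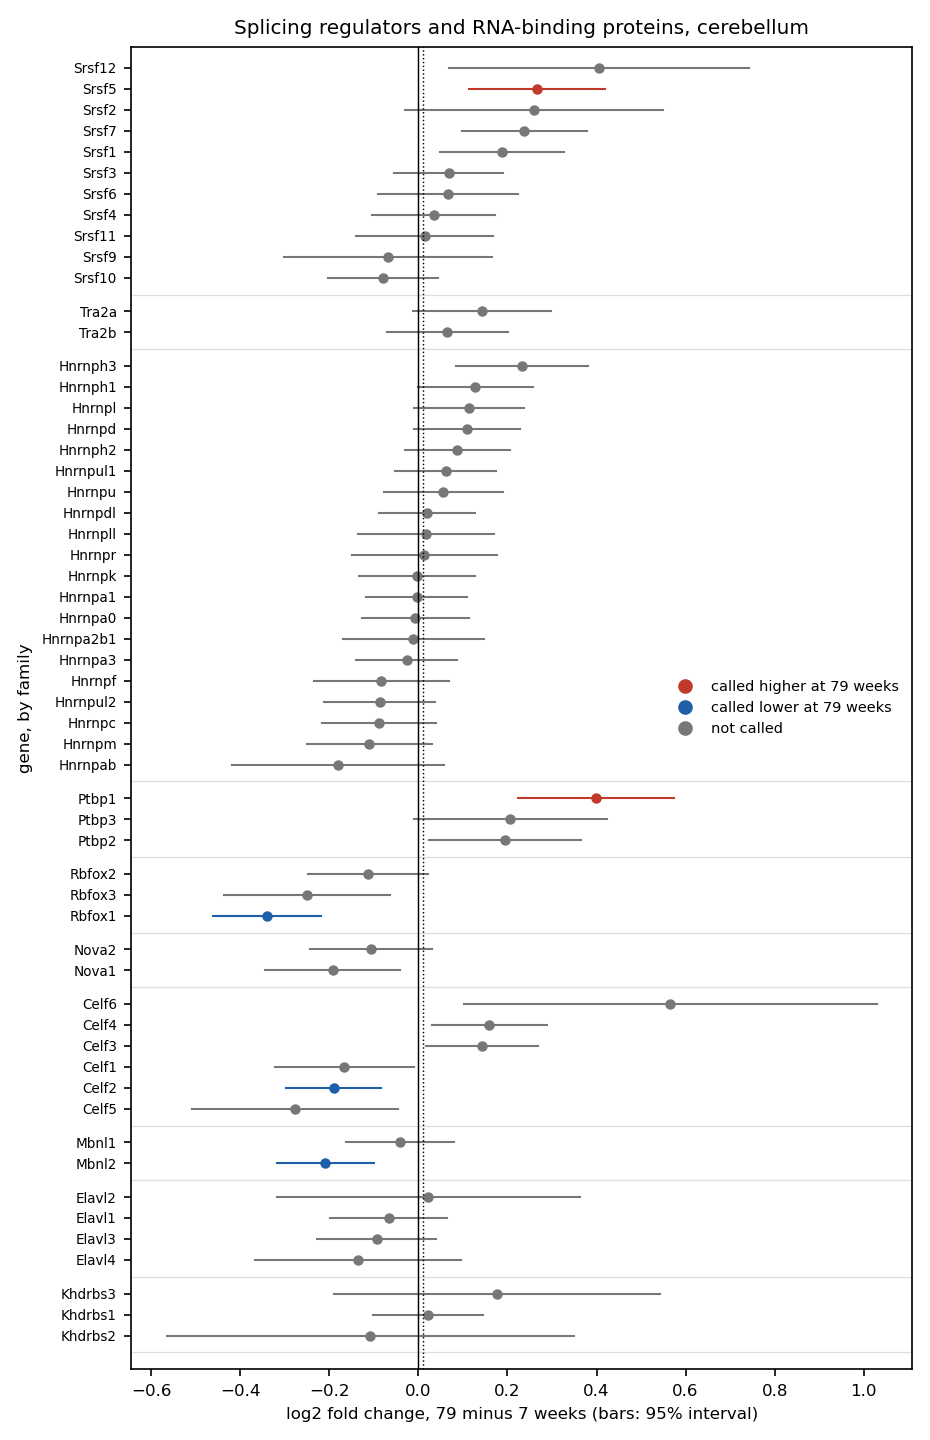
Log2 fold change (79 minus 7 weeks, horizontal axis) of each of the 56 tested genes, grouped by family, with bars for the 95% interval of the edgeR fit; the dotted line is the median of all genes tested. Red points were called higher, blue points lower and grey points were not called. The 3 Ptbp genes lie right of 0 and the 3 Rbfox genes left of it, while Hnrnp values spread from -0.18 to 0.23 around 0.

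Sequence upstream of the genes gives the context of these transcript levels. Of the 57 genes, 50 had at least 1 start in RefSeq's table for GRCm38.p6, 87 starts in all. Over the 250 bases before those starts the median GC content was 61.6%, against 52.4% over all 32851 starts. All starts belong to 27025 genes, more than the 15292 tested here, and the sets were not matched for expression. Whether the members differ from other expressed genes in these traits was not tested. The median number of CG dinucleotides was 18, against 6. A set of 5 short motifs was searched on both strands: TATAAA (the TATA box), CCAAT (the CCAAT box), GGGCGG (the GC box), CCGGAAG (an ETS core) and TGACGT (the core of a cAMP response element). Overlapping matches were counted for each. GGGCGG was in 64.4% of the members' starts and 32.7% of all starts, TGACGT in 17.2% and 6.47%, CCAAT in 48.3% and 33.8%, CCGGAAG in 10.3% and 6.91%, and TATAAA in 9.2% and 12.4%. Counting only the first listed start of each gene, TATAAA was in 14% of the members and 13% of all genes, so its direction turned, while the other motifs kept theirs. Starts of a gene can share sequence, and matches are descriptions of letters and not of bound sites.

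The called genes with 1 or 2 listed starts are shown to set genes that rose beside genes that fell. Celf2, which also fell, has more listed starts and is given by its counts after the sequences. Each run is the 250 bases before a start, on the strand of the gene, with motif matches in capitals.
Ptbp1 (higher at 79 weeks, chr10:79854182-79854431, plus strand): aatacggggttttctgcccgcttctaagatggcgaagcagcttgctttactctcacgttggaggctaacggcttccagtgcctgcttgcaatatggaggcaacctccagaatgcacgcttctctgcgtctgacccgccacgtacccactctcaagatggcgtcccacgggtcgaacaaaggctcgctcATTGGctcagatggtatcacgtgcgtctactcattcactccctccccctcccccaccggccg
Srsf5 (higher at 79 weeks, chr12:80945249-80945498, plus strand): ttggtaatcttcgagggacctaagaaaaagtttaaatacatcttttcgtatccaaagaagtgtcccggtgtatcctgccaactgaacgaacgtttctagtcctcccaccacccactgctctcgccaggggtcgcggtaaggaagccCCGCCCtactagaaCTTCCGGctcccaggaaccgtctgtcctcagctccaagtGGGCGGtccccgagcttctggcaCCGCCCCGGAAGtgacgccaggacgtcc
Mbnl2 (lower at 79 weeks, chr14:120275419-120275668, plus strand): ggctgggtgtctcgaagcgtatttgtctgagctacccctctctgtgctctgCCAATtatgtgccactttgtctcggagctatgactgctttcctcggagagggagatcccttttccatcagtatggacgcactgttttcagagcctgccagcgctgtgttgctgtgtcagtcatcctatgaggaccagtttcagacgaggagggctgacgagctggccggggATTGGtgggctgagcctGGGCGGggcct
Rbfox1, downstream start (lower at 79 weeks, chr16:7069585-7069834, plus strand): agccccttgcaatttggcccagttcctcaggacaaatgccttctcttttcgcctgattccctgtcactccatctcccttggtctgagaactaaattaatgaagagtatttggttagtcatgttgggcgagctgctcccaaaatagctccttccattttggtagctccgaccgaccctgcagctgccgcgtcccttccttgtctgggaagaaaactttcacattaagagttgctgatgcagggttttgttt

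Srsf5 held 3 GGGCGG and 2 CCGGAAG matches, of which a GGGCGG and a CCGGAAG match share a base, and 17 CG dinucleotides. Ptbp1 also held 17 CG dinucleotides, with 1 CCAAT match. Mbnl2 held 10 CG dinucleotides, with 2 CCAAT and 1 GGGCGG match. The downstream start of Rbfox1 held 6 and its other listed start 2, and neither held a match to any of the motifs. The 5 listed starts of Celf2, which also fell, ranged from 45.6% to 82.8% GC and from 3 to 43 CG dinucleotides. The start with 43 also held 3 GGGCGG matches. Apart from that start, each listed start of the genes that fell held fewer CG dinucleotides than those of Ptbp1 and Srsf5. Whether the number of CG dinucleotides goes with direction was not tested. The counts are per gene and do not say which start was used.

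The Ptbp genes encode repressors of exons. Ptbp1 is the form of most dividing and glial cells, Ptbp2 replaces it as neurons form, and Ptbp3 is another paralog. Ptbp1 (ENSMUSG00000006498) stood at 65.1 and 62.5 CPM in the 7-week libraries and at 89.1 and 79.3 CPM in the 79-week libraries. Both 79-week values lay above both 7-week values, with the higher of them in replicate 1. Ptbp1 rose 1.32-fold, with a log2 fold change of 0.40 (SE 0.08, edgeR adjusted p = 0.0219). It was called in 11 of 13 other settings, and the exceptions were the fits without 7-week replicate 1 or 2. Those fits called few genes or none of all that were tested, so a call lost there says little about a single gene. With the choroid-rich 79-week replicate 1 left out, its log2 fold change was 0.32 and the edgeR call held (edgeR adjusted p = 0.0252), while DESeq2 no longer called it. Of the 4 libraries, 79-week replicate 2 was the only one that could be left out with Ptbp1 still called by DESeq2.

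In RefSeq's gene table for GRCm38.p6, the span of Ptbp1 overlaps that of Plppr3, a phospholipid phosphatase related gene. Plppr3 went from 23.5 and 25.7 to 36.4 and 37.8 CPM, so it was also higher at 79 weeks (log2 fold change 0.59, edgeR adjusted p = 0.0118). Reads that matched more than 1 gene were set aside as ambiguous, 0.70% to 0.77% of each library. The strand setting of the counting is not given. Whether reads of the overlap were set aside or counted for the wrong gene was not tested. None of the other called genes overlaps a protein-coding gene there. In all, the spans of 13 of the 57 genes overlap another protein-coding gene there. Among them are Srsf2 (with Mfsd11), Celf3 (with Riiad1), Hnrnph3 (with Rufy2) and Hnrnpab (with Phykpl).

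The other members of the family had separate ages as well. Ptbp2 stood at 105 and 110.5 CPM at 7 weeks and at 132 and 115 CPM at 79 weeks. Ptbp3 stood at 24.1 CPM in both 7-week libraries and at 26.3 and 29.3 CPM at 79 weeks. Neither passed the test, with log2 fold changes of 0.19 and 0.21 (edgeR adjusted p = 0.14 and 0.205). Both values kept their sign but changed in size as each library was left out in turn. The log2 fold change ran from 0.098 to 0.28 for Ptbp2, lowest without 79-week replicate 1, and from 0.12 to 0.28 for Ptbp3. Without 79-week replicate 2 or without the low-count filter Ptbp2 was called. Summed over the family, levels were 194 and 197 CPM at 7 weeks and 247 and 224 CPM at 79 weeks, so those sums did not overlap. Markers of microglia, the immune cells of the brain, were also higher: 5 of 8 were called higher and 0 lower, and their sum was 119 and 131 CPM at 7 weeks and 204 and 252 CPM at 79 weeks. Markers of other glia went differently. Of 10 markers of myelinating oligodendrocytes 5 were called lower and 0 higher, with a median log2 fold change of -0.54 and sums of 6351 and 5972 CPM at 7 weeks and 3814 and 5370 CPM at 79 weeks. Of 7 markers of astrocytes and Bergmann glia 2 were called higher and 1 lower, with sums of 2866 and 3051 CPM and then 2639 and 2857 CPM. None of the markers in these 3 lists was at 0 in all libraries, and the part of these cells in the Ptbp values was not tested. Libraries that do not overlap between ages are common here, at 57.7% of all genes tested.

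The Rbfox genes encode neuronal splicing factors that share their RNA-binding domain. Rbfox1 (ENSMUSG00000008658), whose loss makes mouse neurons hyperexcitable, stood at 372 and 365 CPM in the 7-week libraries and at 296 and 286 CPM in the 79-week libraries. The ages were far apart relative to the spread within each age. Rbfox1 fell by 0.34 on the log2 scale (SE 0.05, edgeR adjusted p = 0.0126), the smallest p of the 56 genes. It was called in 11 of 13 other settings and not without 7-week replicate 1 or 2, fits that called few genes or none. With each library left out its log2 fold change stayed between -0.36 and -0.32. DESeq2 called Rbfox1 with each of the 4 libraries left out.

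Rbfox3 encodes NeuN, the nuclear antigen used to label most neurons, though not Purkinje cells. It stood at 635 and 555 CPM at 7 weeks and at 482 and 519 CPM at 79 weeks. Those ranges did not overlap, but the 7-week libraries differed from each other by almost as much as the ages did. The log2 fold change was -0.25 (SE 0.08, edgeR adjusted p = 0.094), and DESeq2 did call it. With each library left out it ran from -0.35 to -0.15. Rbfox2, the broadly expressed paralog, stood at 371 and 347 CPM at 7 weeks and at 327 and 337 CPM at 79 weeks, a log2 fold change of -0.11 that was not called. Summed over the family, levels were 1379 and 1267 CPM at 7 weeks and 1105 and 1141 CPM at 79 weeks.

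Part of the neuronal markers fell as well. Of 11 granule neuron markers, a list without any Rbfox gene, 5 were called lower and 1 higher, and their sum was 7819 to 8002 CPM at 7 weeks and 6428 to 6772 CPM at 79 weeks. Of 9 Purkinje cell markers 5 were called lower and 0 higher, with sums of 10491 to 10562 CPM at 7 weeks and 8581 to 8814 CPM at 79 weeks. Markers of inhibitory interneurons did not fall in this way: 0 of 6 were called, and 4 had a log2 fold change above 0. Their sums were 1395 and 1524 CPM at 7 weeks and 1512 and 1606 CPM at 79 weeks. In bulk tissue, fewer cells of a type and less RNA per cell cannot be told apart, and the part of these shifts in the Rbfox values was not tested.

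**Figure D2:**
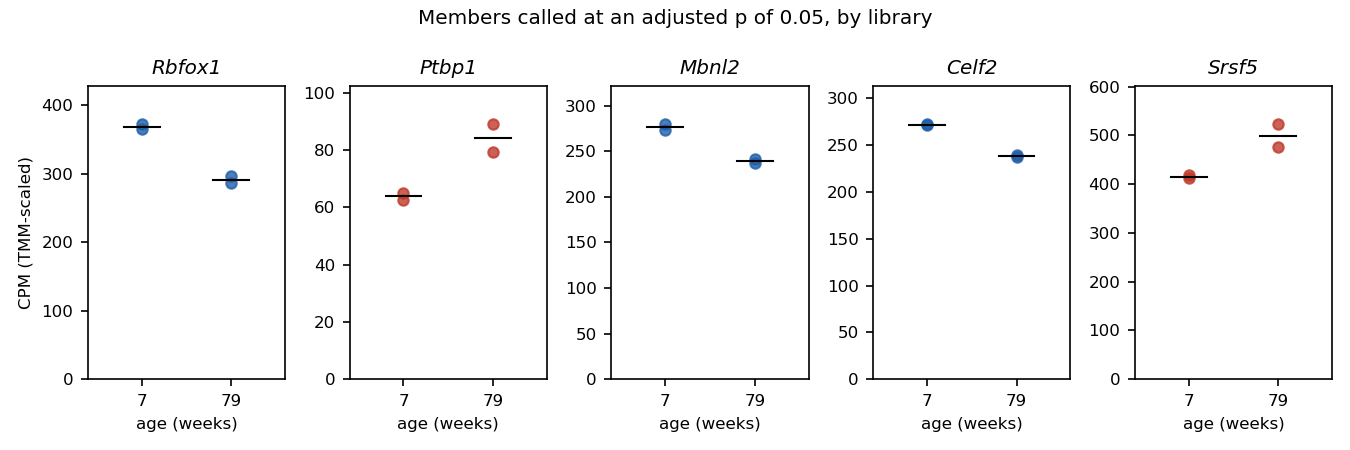
Level in CPM (vertical axis, from 0) of the 5 called genes in each library against age in weeks; each point is a library and each black line the mean of 2. The ages do not overlap for any of the 5. For all of them but Mbnl2, the 79-week values lie farther apart than the 7-week values.

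Nova1 and Nova2 encode neuronal KH-domain proteins that control exons of synaptic genes. Nova1 stood at 108 and 101 CPM at 7 weeks and at 87.6 and 94.6 CPM at 79 weeks, and Nova2 at 85.2 and 89.3 CPM and then 81.4 and 80.7 CPM. Both had lower values at 79 weeks with no overlap, against 28.7% of all genes tested, and neither passed the test. For Nova1 the log2 fold change was -0.19 (SE 0.06, edgeR adjusted p = 0.108) and for Nova2 it was -0.11 (edgeR adjusted p = 0.29).

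The Celf genes, which bind GU-rich sequence and act on splicing, translation and decay, divided by direction. Celf2 (ENSMUSG00000002107) stood at 271.7 and 272.5 CPM at 7 weeks and at 239.6 and 237.2 CPM at 79 weeks. The ages did not overlap, and the libraries of each age were close to each other. Celf2 fell by 0.19 on the log2 scale (SE 0.05, edgeR adjusted p = 0.0444). Of the 5 calls it was kept in the fewest other settings, 5 of 13. It was lost with upper-quartile scaling, library-size scaling, limma-voom, a replicate block and each fit that left out a library. With a library left out the log2 fold change stayed between -0.20 and -0.19.

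Celf1, the broadly expressed founder of the family, had values of 351 and 314 CPM at 7 weeks and 289 and 304 CPM at 79 weeks. Celf5 stood at 80.9 and 73.1 CPM and then at 69.4 and 57.7 CPM. With Celf2 these were the Celf genes with lower values at 79 weeks. Celf4, which is neuronal and whose loss causes seizures in mice, stood at 466 and 471 CPM at 7 weeks and at 524 and 522 CPM at 79 weeks. Celf3 stood at 89.1 and 89.9 CPM and then at 98.8 and 98.9 CPM. Celf6, the least counted of the family, stood at 4.30 and 3.96 CPM and then at 5.80 and 6.40 CPM. These were the Celf genes with higher values at 79 weeks, with log2 fold changes of 0.16, 0.14 and 0.57.

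All 6 Celf genes had ages that did not overlap and an unadjusted p under 0.05, against 57.7% and 26.7% of all genes tested. Except for Celf2, none passed the adjusted threshold, with edgeR adjusted p from 0.117 for Celf4 to 0.162 for Celf1. With 79-week replicate 1 left out Celf5 was called lower (log2 fold change -0.41, edgeR adjusted p = 0.00557). Because the directions cancel, the median of the family was -0.01. Its sum was 1263 and 1225 CPM at 7 weeks and 1227 and 1226 CPM at 79 weeks, so the family total overlapped between ages.

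**Figure D3:**
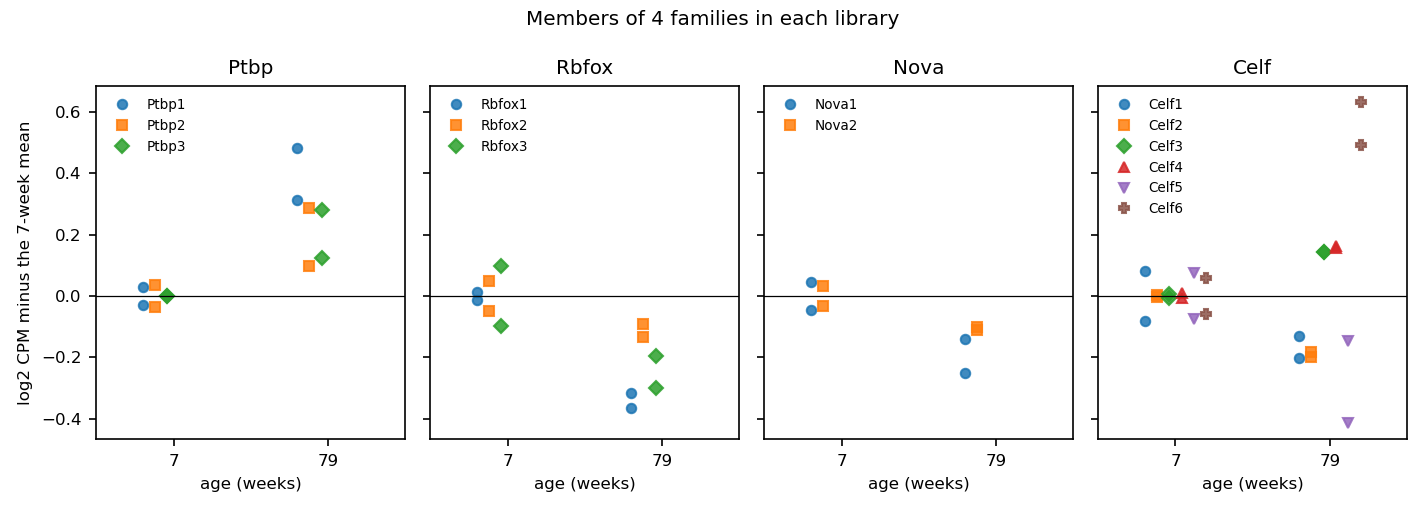
Log2 CPM minus the 7-week mean of the same gene (vertical axis) for the Ptbp, Rbfox, Nova and Celf genes in each library against age in weeks; each symbol is a library of a gene. The 79-week points lie above the 7-week points for Ptbp, below them for Rbfox and Nova, and on either side for Celf, where Celf3, Celf4 and Celf6 are above and Celf1, Celf2 and Celf5 below.

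Muscleblind proteins (Mbnl) promote the adult pattern of exons and are the proteins captured by expanded repeats in myotonic dystrophy, Mbnl2 being the main form in brain. Mbnl2 (ENSMUSG00000022139) stood at 280 and 273 CPM at 7 weeks and at 237 and 241 CPM at 79 weeks. It fell by 0.21 on the log2 scale (SE 0.05, edgeR adjusted p = 0.0365). The call held in 8 of 13 other settings. It was lost with scaling by library size, with a replicate block and without 79-week replicate 1. It was also lost without 7-week replicate 1 or 2, fits that called few genes or none. With each library left out the log2 fold change stayed between -0.23 and -0.20. DESeq2 called neither Mbnl2 nor Celf2 when any of the 4 libraries was left out. Mbnl1 overlapped between ages, at 158 and 166 CPM and then 160.5 and 154 CPM. Mbnl3 was not tested, with 3 and 4 reads at 7 weeks and 3 and 2 reads at 79 weeks.

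SR proteins carry an RNA recognition motif and a tail of arginine and serine repeats that kinases phosphorylate. Srsf5 (ENSMUSG00000021134) stood at 412 and 418 CPM at 7 weeks and at 523 and 476 CPM at 79 weeks. It rose 1.20-fold, with a log2 fold change of 0.27 (SE 0.07, edgeR adjusted p = 0.048). The call was lost once the choroid-rich 79-week replicate 1 was dropped, where the log2 fold change was 0.20. It was also lost without 7-week replicate 1 or 2, fits that called few genes or none. With each library left out the log2 fold change ran from 0.20 to 0.33. DESeq2 called Srsf5 without 79-week replicate 2 and in no fit that left out another library.

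Srsf7 followed just outside the threshold, at 81.7 and 84.9 CPM at 7 weeks and 101 and 95.5 CPM at 79 weeks (log2 fold change 0.24, edgeR adjusted p = 0.0526). It was called in 6 of 13 other settings, among them upper-quartile and library-size scaling, against 5 of 13 for the called gene Celf2. Srsf1, a constitutive and alternative splicing factor, stood at 366 and 347 CPM and then at 418 and 394 CPM (log2 fold change 0.19, edgeR adjusted p = 0.0946). It was called in 3 of 13 other settings, among them library-size scaling. Srsf12 and Srsf2 had log2 fold changes of 0.40 and 0.26 and were not called. With each library left out these ran from 0.23 to 0.62 for Srsf12 and from 0.0998 to 0.40 for Srsf2, the latter lowest without 79-week replicate 1. Without 79-week replicate 2 both were called. The 79-week value was larger in replicate 1 than in replicate 2 for each of Srsf1, Srsf2, Srsf5, Srsf7 and Srsf12. The remaining 6 SR genes, Srsf3, Srsf4, Srsf6, Srsf9, Srsf10 and Srsf11, had log2 fold changes from -0.08 for Srsf10 to 0.07 for Srsf3. In the family of 11, 9 values were above 0 and 6 were higher with no overlap, against 29.1% of all genes tested, and the family median was 0.07.

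Tra2a and Tra2b encode SR-like activators of exons. Tra2a stood at 67.7 and 67.2 CPM at 7 weeks and at 71.6 and 77.2 CPM at 79 weeks (log2 fold change 0.14, edgeR adjusted p = 0.219). Tra2b went from 92.3 and 98.5 CPM to 99.5 and 100.1 CPM. Both were higher with no overlap, against 29.1% of all genes tested, and neither was called.

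The hnRNPs coat new transcripts and include abundant repressors such as Hnrnpa1 and scaffolds such as Hnrnpu. In this family 0 of 20 genes were called by edgeR, against 8.84% of all genes, 1 had an unadjusted p under 0.05, against 26.7%, and DESeq2 called 0. The gene with that p was Hnrnph3, a relative of the G-run binding protein Hnrnph1, at 67.5 and 63.7 CPM at 7 weeks and 77.5 and 76.5 CPM at 79 weeks. Its log2 fold change was 0.23 (SE 0.06, edgeR adjusted p = 0.0644). Other edgeR settings did call it: library-size scaling (edgeR adjusted p = 0.0356), no low-count filter (0.0203) and robust dispersion (0.0477). Hnrnpab was called without the low-count filter and without 79-week replicate 1, where its log2 fold change was -0.36 (edgeR adjusted p = 0.0081), and it stood at -0.024 without 79-week replicate 2. Hnrnph1, Hnrnph2, Hnrnpl, Hnrnpd, Hnrnpu, Hnrnpul1 and Hnrnpdl were also higher with no overlap, with log2 fold changes from 0.02 to 0.13. Hnrnpm, Hnrnpab, Hnrnpul2, Hnrnpc, Hnrnpf and Hnrnpa3 were lower with no overlap, from -0.18 for Hnrnpab to -0.03 for Hnrnpa3. Hnrnpa0, Hnrnpa1, Hnrnpa2b1, Hnrnpk, Hnrnpll and Hnrnpr overlapped between ages. With no overlap, 8 of the 20 were thus higher and 6 lower, against 29.1% and 28.7% of all genes tested.

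The hnRNP intervals were narrow. Hnrnpk, which binds C-rich sequence, stood at 403 and 421 CPM at 7 weeks and at 408 and 414 CPM at 79 weeks, with a 95% interval of its log2 fold change from -0.13 to 0.13. Hnrnpa1 stood at 163.5 and 160.8 CPM and then at 159.5 and 163.7 CPM, with an interval from -0.12 to 0.11. Over the family no interval reached beyond -0.42 or 0.38. Family sums were 4759 and 4662 CPM at 7 weeks and 4761 and 4778 CPM at 79 weeks. Reads aligned to more than 1 place, 8.02% to 8.25% of each library, were not counted, which bears on members with near-identical copies such as Hnrnpa1.

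Elavl genes encode binders of AU-rich sequence that stabilise transcripts: Elavl1 (HuR) is found in most cells, and Elavl2, Elavl3 and Elavl4 are neuronal. Elavl3 stood at 479 and 459 CPM at 7 weeks and at 442 and 436 CPM at 79 weeks (log2 fold change -0.09, edgeR adjusted p = 0.339). Elavl1 was also lower with no overlap, while Elavl2 and Elavl4 overlapped. Over all genes tested, 28.7% were lower with no overlap. The Khdrbs genes encode Sam68 (Khdrbs1), SLM1 (Khdrbs2) and SLM2 (Khdrbs3), which control exons of neurexin genes. All 3 overlapped between ages, and Khdrbs3, with the smallest p of these, went from 11.4 and 9.46 CPM to 10.8 and 12.7 CPM (log2 fold change 0.18, edgeR adjusted p = 0.519). In edgeR's test 0 of these 7 genes were called, against 8.84% of all genes, 0 had an unadjusted p under 0.05, against 26.7%, and DESeq2 called 0. Elavl4 depended on single libraries: it was called without 79-week replicate 2 (log2 fold change -0.29, edgeR adjusted p = 0.0279) and stood at -0.00037 without 79-week replicate 1.

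Set side by side, the median log2 fold changes were 0.21 for Ptbp, 0.10 for Tra2, 0.07 for Srsf, 0.02 for Khdrbs, 0.01 for Hnrnp, -0.01 for Celf, -0.08 for Elavl, -0.13 for Mbnl, -0.15 for Nova and -0.25 for Rbfox. Differences between families were not tested. Most families hold 2 to 6 genes, so a median there describes those few genes.

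**Figure D4:**
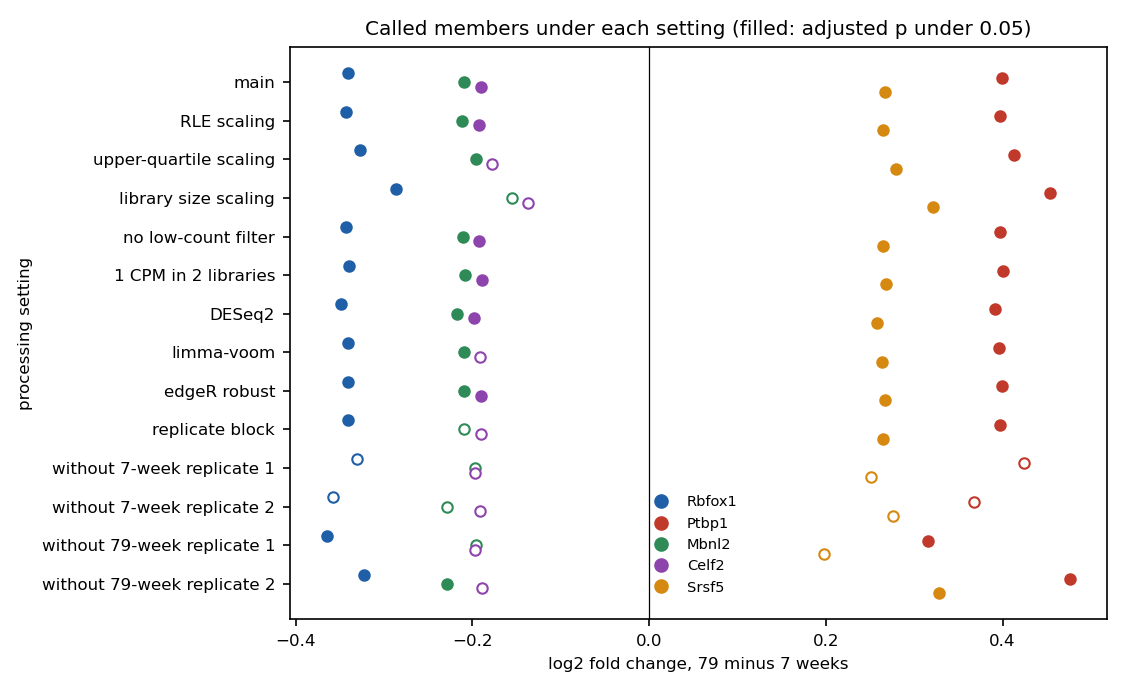
Log2 fold change (79 minus 7 weeks, horizontal axis) of the 5 called genes under each processing setting (vertical axis), filled where the adjusted p is under 0.05. Each gene keeps its side of 0 in every setting shown. No point is filled in the fits without 7-week replicate 1 or 2, where few genes or none were called among all that were tested.

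Other genes of the pathway were described from 3 lists. In the core spliceosome, the shared machinery of splicing, 0 of 45 tested genes were called by edgeR, against 8.84% of all genes, 5 had an unadjusted p under 0.05, against 26.7% of all genes, and DESeq2 called 0. Their median log2 fold change was 0.05. The smallest p-values there belonged to Prpf6, a protein of the tri-snRNP, and Sf1, which binds the branch point. Prpf6 went from 73.8 and 86.1 CPM to 96.1 and 99.2 CPM (log2 fold change 0.29, edgeR adjusted p = 0.0675), and Sf1 from 274 and 262 CPM to 293 and 296 CPM (log2 fold change 0.14, edgeR adjusted p = 0.131).

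Of 9 kinases that phosphorylate SR proteins or splicing factors, 1 rose and 1 fell, against 4.17% of all genes called higher and 4.68% called lower. Clk1, a nuclear SR protein kinase, stood at 189 and 212 CPM at 7 weeks and at 259 and 242 CPM at 79 weeks, and rose (log2 fold change 0.32, SE 0.07, edgeR adjusted p = 0.031). Srpk2 went from 225.4 and 225.8 CPM to 192 and 197 CPM and fell by 0.22 on the log2 scale (SE 0.05, edgeR adjusted p = 0.0344). Both calls ended without 7-week replicate 1 or 2, fits that called few genes or none. That of Srpk2 also ended without 79-week replicate 1 (edgeR adjusted p = 0.118) and with scaling by library size (log2 fold change -0.16, edgeR adjusted p = 0.0719), where Clk1 and Clk4 were the called kinases.

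Of 48 tested genes of other RNA-binding and splicing factors, 2 rose and 2 fell, or 8.33%, against 8.84% of all genes tested. Srrm4, the neuronal activator of microexons, stood at 158 and 147 CPM at 7 weeks and at 107 and 111 CPM at 79 weeks. It fell by 0.48 on the log2 scale (SE 0.06, edgeR adjusted p = 0.0065). The call held without 7-week replicate 2 and ended without 7-week replicate 1, as every call did. Pcbp4, a binder of C-rich sequence, fell by 0.35, from 317 and 289 CPM to 237 and 239 CPM (edgeR adjusted p = 0.0154), and its paralog Pcbp3 rose 1.23-fold, from 71.8 and 78 CPM to 94.8 and 89.9 CPM (edgeR adjusted p = 0.0366). The cold-inducible gene Cirbp rose 1.33-fold, from 69 and 72 CPM to 103.5 and 84.4 CPM (edgeR adjusted p = 0.0423), and its value was higher in 79-week replicate 1. Without that library the calls of Pcbp3 and Cirbp ended (edgeR adjusted p = 0.0672 and 0.0663), and limma-voom did not call Cirbp (adjusted p = 0.0563). Without 7-week replicate 1 or 2 the calls of all 3 of Pcbp4, Pcbp3 and Cirbp ended, in fits that called few genes or none. Without 79-week replicate 1 the log2 fold change of Cirbp was 0.26 in place of 0.41.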

How the data were processed

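The authors deposited raw counts of reads for each Ensembl gene, from 4 mRNA libraries of cerebellum, 2 at each age. The submitters' processing notes name cutadapt, STAR, HTSeq and Bismark and the build mm9, with no versions or roles, and the summary lines at the end of each table are those HTSeq writes. The sources used here give neither annotation release nor strand setting. The summary lines were removed, among them reads in no gene (18.7% to 20.4% of each library). Symbols came from an Ensembl name table, for 32919 of 37991 identifiers.

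In R 4.3.3, edgeR 4.0.16 dropped low genes (filterByExpr, count 10 and total 15 as minima), and counts were scaled by TMM (factors 0.9812 to 1.023) and compared as 79 minus 7 weeks by the quasi-likelihood F test, p-values being adjusted by Benjamini-Hochberg across the 15292 genes tested, with 0.05 as threshold. The SE is the log2 fold change divided by the square root of F. The fit was also run on simulated data with the same spread for all genes. Its pass mark was set on changes larger than those of the called members, so that mark does not cover them. Smaller changes were simulated without a pass mark, and their recovery is not reported here. CPM are TMM-scaled counts, not scaled by gene length, so levels are not compared between genes. Also tried were scaling by RLE, upper quartile or library size, other low-count filters, DESeq2 1.42.0, voom in limma 3.58.1, robust dispersion, a replicate block and each library left out. A crossed block and DESeq2 with a library left out were added after seeing the data.

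Genes named with full values were each called member, the smallest p in a family without a call, and in each pathway list up to 4 called genes or the 2 smallest p-values. The result of 1 pathway list is not reported here. Other members are given by range or library values, and Plppr3 and the sums per family were added after values were seen. The genes, lists and tests were chosen with earlier results of these data known. Promoter sequences are from RefSeq, build GRCm38.p6, another build than that of the counts. Replicates of an age differed by more than sampling noise (chi-square per degree of freedom 6.45 at 7 weeks and 18.5 at 79 weeks). These values are summed over genes, among them choroid plexus markers such as Ttr, at 5061 and 2.16 CPM in the 79-week libraries. The part of such genes in the 79-week value was not tested.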

Additional observations from a re-analysis of the deposited data

How the results depend on the processing

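Of 247 values of the 19 genes chosen by the naming rule under 13 other settings, 197 kept their side of the threshold, 41 kept their direction but lost the call, 9 gained one and 0 reversed; 42 of the 56 tested members kept their sign in all 13. Without the low-count filter 14 members were called (7 higher, 7 lower) and 3051 of all genes, with 4 SR protein kinases, 11 other RNA-binding factors and 1 core spliceosome gene. With scaling by library size 6 members were called, 3 of them shared with the 5 reported, the split over all genes was 901 higher and 484 lower in place of 637 and 715, and 1 core spliceosome gene was called. Robust dispersion called 1 core spliceosome gene. Leaving out each library in turn gave 0 to 11 members and 0 to 2425 genes, and 0 to 1 core spliceosome genes, 0 to 2 kinases and 0 to 8 other factors. The zeros came without 7-week replicate 1, where 8 members and 2610 genes had an unadjusted p under 0.05, and, for members, without 7-week replicate 2, where 13 did and 175 genes were called. The 11 came without 79-week replicate 2. DESeq2 with a library left out, added after seeing the data, called 1 member when 7-week replicate 1 was dropped and 2 for 7-week replicate 2, and 1 and 3 members when replicate 1 or 2 of 79 weeks was dropped. The cause was not tested.

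With DESeq2 the Ptbp median was 0.20. Library-size scaling raised all family medians, to 0.12 (Srsf), 0.16 (Tra2), 0.059 (Hnrnp), 0.26 (Ptbp) and -0.20 (Rbfox). The others became -0.10 (Nova), 0.042 (Celf), -0.071 (Mbnl), -0.027 (Elavl) and 0.075 (Khdrbs). The median of all genes tested rose as well, from 0.0099 to 0.064. Upper-quartile scaling also raised that median, to 0.023, and each family median. Among these, Hnrnp became 0.018, Ptbp 0.22 and Mbnl -0.11, and Celf turned positive at 0.0014. With each library left out the family medians ran from 0.046 to 0.14 (Srsf), 0.068 to 0.13 (Tra2), 0.0032 to 0.015 (Hnrnp), 0.20 to 0.28 (Ptbp), -0.35 to -0.15 (Rbfox), -0.18 to -0.13 (Nova), -0.022 to 0.022 (Celf), -0.14 to -0.12 (Mbnl), -0.12 to -0.062 (Elavl) and -0.023 to 0.059 (Khdrbs), so the sign of the Celf and Khdrbs medians depends on the library left out.

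The labels do not say that a shared replicate number pairs libraries, and same-numbered libraries did not deviate together (correlation -0.1062). With a replicate block 4 members were called, 3 of them shared with the 5 reported: Mbnl2 and Celf2 lost their calls (edgeR adjusted p = 0.0567 and 0.0713) and Celf5 gained one. The same fit ended the call of Srpk2 (edgeR adjusted p = 0.0504) and called 1396 genes in all, with 1 core spliceosome gene and 1 kinase. With the numbers crossed, an alternative added after seeing the data, 7 members and 2014 genes were called. With 2 libraries at each age the spread rests on few degrees of freedom, and where 1 library stands for an age it is assumed to vary like the other age. Low counts limit Celf6, Khdrbs2 and Khdrbs3, the least counted of the tested members.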
